A study of Mus musculus with 40 samples.

Results

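The tumour necrosis factor (TNF) superfamily and its receptors were followed in the lungs of AJ and C3H mice after aspiration of an allergen. Members were taken by gene symbol: every symbol starting with Tnfsf or Tnfrsf and a number, and in addition Fas, Fasl, Cd40, Cd40lg, Cd27, Cd70, Lta and Ltb. Of 12393 genes on the array, 34 were members, 12 ligands and 22 receptors. The symbols Tnfsf12 and Tnfsf13 stood on probe sets shared with other symbols and were not analysed here. Total RNA of mouse lung was hybridised to 40 one-colour arrays in 8 groups of 5. The groups were AJ mice 6 h or 24 h after PBS (phosphate-buffered saline), AJ mice at the same times after allergen in PBS, and the corresponding 4 groups of C3H mice. Titles write the allergen as OVA and descriptions as HDM, and descriptions call every mouse AJ and hyperresponsive, so the strain was read from titles and the treatment is called allergen. All mice were aspirated, and no group without aspiration was analysed here. Age, sex and any earlier sensitisation are not given in the sources used here, nor is it stated that the 5 arrays of a group are separate mice, and the p-values then reflect only how far these samples vary, which may be technical variation.

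Ligands of the TNF superfamily are mostly membrane-bound proteins that act as trimers, some of them also released by cleavage, and each binds a small set of receptors with cysteine-rich extracellular domains. Receptors with a death domain in their tail can lead to caspase activation, and many receptors of the family recruit TRAF adaptor proteins and switch on NF-kB and kinase signalling. In inflamed lung the family is known for costimulation of T cells, survival of B cells, killing of infected or activated cells and the response of epithelium and stroma to injury.

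Levels are given as log2(intensity + 16), so a dim gene cannot fall much below 4 and its fold changes are understated. Differences are allergen minus PBS on that scale unless stated, with the standard error (SE) of limma, and the words rose, fell and changed are kept for a Benjamini-Hochberg adjusted p under 0.05 over all 12393 genes. Arrays had medians of 63.7 to 81.3 in intensity units after the authors' scaling, and their number limits the precision. Lung epithelium markers such as Sftpc, a surfactant protein, averaged between 11.24 and 11.91 over their list on every array. The C3H PBS 6 h array 2 had the lowest median correlation with the other arrays of its group, 0.938, against 0.956 or more for the other 39. A total of 12 members, among them Cd27, Cd70, Tnfsf9 and Tnfsf14, lay among the dimmest 25% of genes by mean level, which an alternative left out.

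With allergen, 18 of the 34 members changed in at least 1 strain and time, 15 upward and 4 downward, with Tnfsf9 in both counts. Tnfrsf9, Tnfsf13b and Cd40 rose in all 4 comparisons. At 6 h in AJ mice 11 members were higher and 3 lower, 41.2% of the members against 19.0% of all genes (7.03% higher and 12% lower). At 24 h in AJ mice 7 were higher and 0 lower, 20.6% against 7.84% (4.56% higher, 3.28% lower). The C3H count at 6 h was 7 higher and 1 lower, 23.5% against 7.62% (3.93% higher, 3.69% lower). The C3H count at 24 h was 3 higher and 1 lower, 11.8% against 3.24% (2.1% higher, 1.15% lower). The median difference of the members in that order was 0.15, 0.12, 0.21 and -0.02, beside -0.07, 0.00, 0.00 and -0.04 for all genes. For AJ mice at 6 h the split of all genes depended on the scaling, with 871 higher and 1487 lower as deposited and 1106 and 974 after centring arrays on their medians. The members' split there was 11 to 3 as deposited and 12 to 3 after centring.

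**Figure D1:**
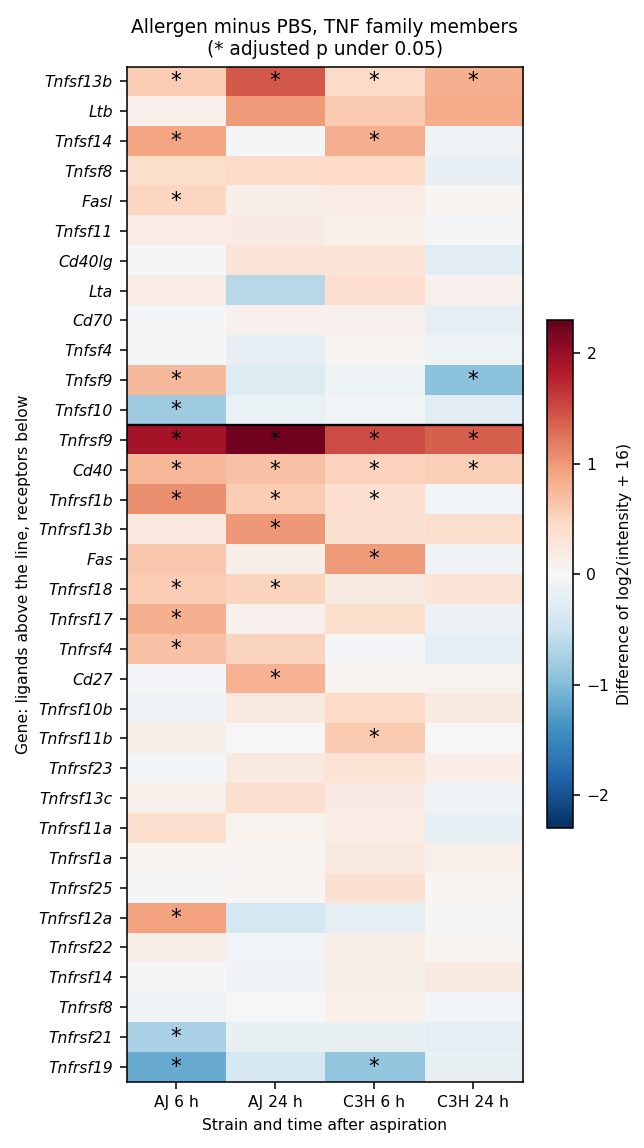
Heat map of the difference of log2(intensity + 16), allergen minus PBS, for the 34 members (rows, ligands above the line and receptors below) in 4 strain and time comparisons (columns), each of 5 against 5 arrays; an asterisk marks an adjusted p under 0.05. Tnfrsf9, Tnfsf13b and Cd40 carry an asterisk in all 4 columns, and the AJ 6 h column has the most, 14.

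RefSeq promoter windows were found for 26 of the 34 members, on GRCm38.p6. The sequences below are the 250 bases before a listed start of Tnfrsf9, Tnfsf13b and Tnfrsf12a. Tnfrsf9 and Tnfsf13b rose in all 4 comparisons, and Tnfrsf12a had the largest difference between times in C3H lungs with PBS. Cd40 also rose in all 4 comparisons, but no sequence of it is shown, and it is not among the members with a match. Capitals mark a form of the NF-kB site, GGG and TTTCC with any 2 bases between them, or a form of the AP-1 site, TGANTCA, each searched on both strands. Both motifs were chosen with the results known, and a match is a description of letters only. Of all 32851 promoter windows of this length 1.41% held the first and 6.75% the second. The 26 members had 30 windows, of which 3 held the first (Tnfrsf9, Ltb and Tnfrsf25) and 5 the second (Tnfrsf9, Tnfsf13b, Tnfsf14, Fas and Tnfrsf8). In the window of Tnfrsf9 shown, the first lies 43 to 34 bases and the second 15 to 9 bases before the start.
Tnfrsf9, GRCm38.p6 chr4:150927749-150927998, plus strand: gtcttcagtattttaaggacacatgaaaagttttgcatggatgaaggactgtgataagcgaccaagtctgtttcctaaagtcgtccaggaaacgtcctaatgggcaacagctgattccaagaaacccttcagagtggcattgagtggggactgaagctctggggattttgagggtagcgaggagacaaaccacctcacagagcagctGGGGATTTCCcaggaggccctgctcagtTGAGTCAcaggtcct
Tnfsf13b, GRCm38.p6 chr8:10006383-10006632, plus strand: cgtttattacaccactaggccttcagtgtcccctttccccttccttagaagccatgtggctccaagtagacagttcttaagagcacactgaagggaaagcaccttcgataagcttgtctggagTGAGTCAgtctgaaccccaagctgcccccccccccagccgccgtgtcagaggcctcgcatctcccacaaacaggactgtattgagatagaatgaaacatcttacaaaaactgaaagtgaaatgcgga
Tnfrsf12a, GRCm38.p6 chr17:23677450-23677699, minus strand: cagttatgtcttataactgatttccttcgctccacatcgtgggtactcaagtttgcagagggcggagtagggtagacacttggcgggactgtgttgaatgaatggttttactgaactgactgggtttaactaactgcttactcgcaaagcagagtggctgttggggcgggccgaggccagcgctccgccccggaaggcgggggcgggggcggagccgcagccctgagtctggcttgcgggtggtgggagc
The windows at the other listed starts of Tnfrsf9 and Tnfsf13b, and that of Tnfrsf12a, hold neither run of letters.

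Among the ligands of B cell survival, Tnfsf13b, which encodes BAFF, rose with allergen in both strains at both times. At 24 h its levels in AJ mice were 7.27, 7.49, 7.03, 7.23 and 7.06 with PBS and 8.89, 8.45, 8.46, 8.94 and 8.41 with allergen. Every allergen array was above every PBS array, and the difference was 1.41 ± 0.14 (SE, adjusted p = 1.8e-09), a 2.66-fold change on this scale. The C3H levels at 24 h were 7.10, 7.20, 7.45, 7.24 and 6.91 with PBS and 8.06, 8.02, 7.92, 8.26 and 7.69 with allergen, again without overlap (0.81 ± 0.14, adjusted p = 0.000327). At 6 h Tnfsf13b rose by 0.59 ± 0.14 in AJ mice (adjusted p = 0.00196). In AJ mice the difference at 24 h exceeded that at 6 h by 0.83 ± 0.20 (adjusted p = 0.00759). At 6 h in C3H mice, where the ranges overlapped, Tnfsf13b stood at 0.43 ± 0.14 with an adjusted p of 0.0497. That call was lost without allergen array 1, 2, 3 or 5 (adjusted p = 0.119, 0.129, 0.0626 and 0.0868) or PBS array 1 or 2 (0.119 and 0.208), with median centring (0.06) and with a pseudocount of 1 (0.0576).

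The 4 receptors of B cells were Cd40, Tnfrsf13b (TACI), Tnfrsf13c (BAFF receptor) and Tnfrsf17 (BCMA). They included 2 rises at each time in AJ mice and 1 at each time in C3H mice. Of all genes 7.03% and 4.56% rose in AJ mice at 6 h and 24 h, and 3.93% and 2.1% in C3H mice. With so few genes in a role group, such counts describe the group and set it apart from no other genes. Cd40, a costimulatory receptor of B cells, dendritic cells and macrophages, rose by 0.77 ± 0.11 in AJ mice at 6 h (adjusted p = 1.32e-06) and by 0.67 ± 0.11 at 24 h (4.43e-05). Its levels in AJ mice at 6 h were 6.45, 6.77, 6.69, 6.52 and 6.63 with PBS and 7.77, 7.34, 7.31, 7.26 and 7.23 with allergen. In C3H mice Cd40 rose by 0.54 ± 0.11 at 6 h and by 0.54 ± 0.11 at 24 h (adjusted p = 0.00119 and 0.00266). The groups did not overlap in any of the 4 comparisons. Tnfrsf13b, a receptor for BAFF and APRIL, rose in AJ mice at 24 h, from 5.89, 5.76, 5.90, 6.23 and 6.05 to 6.61, 7.55, 7.17, 6.42 and 7.04 (0.99 ± 0.21, adjusted p = 0.0013). The lowest allergen array was above the highest PBS array. In the other 3 comparisons Tnfrsf13b stood at 0.22 to 0.41 and did not pass. Tnfrsf17, a receptor of plasma cells, rose in AJ mice at 6 h alone among the 4 tests (0.82 ± 0.23, adjusted p = 0.0081), a dim gene whose difference was 1.88 with a pseudocount of 1 and 0.32 with 64. Tnfrsf13c, the main receptor for BAFF on resting B cells, passed nowhere, with differences of -0.10 to 0.36.

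Markers of B and plasma cells were counted beside these genes. Of 8 measured markers 4 rose in AJ mice at 6 h and 2 at 24 h, and 2 and 1 in C3H mice, with 0 falls. One of the 8, Tnfrsf17, is itself a member. Beside the marker counts here, 7.03% and 4.56% of all genes rose in AJ mice at 6 h and 24 h. The shares of all genes in C3H mice were 3.93% and 2.1%. Over the list, AJ arrays ranged from 6.24 to 6.68 with PBS and 7.13 to 7.81 with allergen at 6 h, and from 6.29 to 7.08 and 7.04 to 8.01 at 24 h. The C3H arrays ranged from 6.23 to 6.96 and 7.12 to 7.82 at 6 h, and from 6.47 to 6.91 and 6.68 to 8.38 at 24 h. The groups of this list overlapped at 24 h in both strains and not at 6 h. Macrophage and monocyte markers rose in 8 of 9 in AJ mice at 24 h, where arrays of that list ranged from 7.27 to 7.55 with PBS and from 8.50 to 8.75 with allergen. The C3H count at 24 h was 5 of 9, from 7.33 to 7.49 up to 7.90 to 8.18. At 6 h 5 of the 9 rose in each strain, from 7.27 to 7.54 up to 7.74 to 8.12 in AJ and from 7.07 to 7.66 up to 7.80 to 8.33 in C3H mice. The lowest mean of any measured marker in any group was 4.47. The part of these cells in the results for BAFF and its receptors was not tested, and in whole lung more cells of a type cannot be told apart from more RNA per cell.

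Of the 6 measured ligands of T cell costimulation, limma called 2 higher for AJ at 6 h and 0 for AJ at 24 h. For C3H it called 1 higher at 6 h and 1 lower at 24 h. In that order 7.03%, 4.56%, 3.93% and 2.1% of all genes were higher, and 12%, 3.28%, 3.69% and 1.15% lower. Tnfsf14, which encodes LIGHT, a ligand for the lymphotoxin beta receptor and Tnfrsf14, rose at 6 h in both strains. In AJ mice its levels were 4.29, 4.32, 4.46, 4.73 and 4.80 with PBS and 4.72, 5.26, 5.48, 5.78 and 5.88 with allergen. The lowest allergen array lay just under the 2 highest PBS arrays, and the difference was 0.90 ± 0.18 (adjusted p = 0.000329). In C3H mice it was 0.84 ± 0.18 (adjusted p = 0.00269), from 4.22, 4.28, 4.32, 4.49 and 4.56 to 5.67, 5.40, 4.41, 5.24 and 5.33. Array 3 with allergen stayed within the PBS range. Because Tnfsf14 was dim, a pseudocount of 1 gave 1.84 in AJ and 1.88 in C3H mice, and one of 64 gave 0.37 and 0.32. A second probe set of Tnfsf14, slightly dimmer, showed 1.55 ± 0.21 in AJ and 1.02 ± 0.21 in C3H mice at 6 h. With the mean of both the rises were 1.23 and 0.93. At 24 h Tnfsf14 stood at -0.03 in AJ and -0.08 in C3H mice, and the second probe set at 0.27 and 0.13. In AJ mice the effect at 24 h was lower than at 6 h by -0.93 ± 0.26 (adjusted p = 0.0254). That call was lost with a pseudocount of 1 (adjusted p = 0.0521) and without AJ allergen 6 h array 4 or 5, AJ PBS 24 h array 3 or AJ PBS 6 h array 2 (0.0587, 0.0611, 0.0531 and 0.0509).

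Tnfsf9, which encodes the 4-1BB ligand, rose at 6 h in AJ mice and was lower with allergen at 24 h in C3H mice. The AJ levels at 6 h were 5.49, 6.16, 5.67, 5.91 and 5.44 with PBS and 6.62, 6.65, 6.45, 6.47 and 6.26 with allergen. The groups did not overlap (0.75 ± 0.24, adjusted p = 0.022), and the call was lost without PBS array 1 or 5 or allergen array 2 (0.0568, 0.0621 and 0.05) and with a pseudocount of 1 (0.105). The C3H levels at 24 h were 5.31, 5.66, 5.97, 5.47 and 5.24 with PBS and 4.37, 4.62, 5.08, 4.46 and 4.43 with allergen. All allergen arrays were below all PBS arrays (-0.94 ± 0.24, adjusted p = 0.0227), and that call was lost without allergen array 1 or 2 or PBS array 3 (0.0745, 0.0515 and 0.079) and with a pseudocount of 64 (0.0508). The effect of allergen on Tnfsf9 differed between strains by -0.87 ± 0.34 at 6 h, which did not pass (adjusted p = 0.206). Tnfsf4 (OX40 ligand), Tnfsf8 (CD30 ligand), Cd40lg and Cd70 passed nowhere. Among these Tnfsf8 had non-overlapping groups in AJ mice at 6 h, at 0.40 ± 0.18 (adjusted p = 0.118).

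Tnfrsf9, which encodes 4-1BB (CD137), the receptor of Tnfsf9, had the largest rise among the members in every allergen comparison by the brightest probe set of each gene. Its AJ levels at 6 h were 7.0, 8.52, 7.69, 7.99 and 6.89 with PBS and 9.71, 9.40, 9.84, 9.45 and 9.25 with allergen. The difference was 1.91 ± 0.25 (adjusted p = 2.5e-07), and no PBS array reached the lowest allergen array. At 24 h the AJ levels were 6.19, 6.67, 6.15, 5.44 and 5.83 with PBS and 8.36, 8.48, 8.28, 8.50 and 7.79 with allergen (2.23 ± 0.25, 4.68-fold on this scale, adjusted p = 2.79e-08). The C3H levels at 6 h went from 7.49, 7.78, 8.42, 7.42 and 8.28 to 9.44, 9.41, 9.32, 9.51 and 9.23 (1.51 ± 0.25, adjusted p = 6.58e-05). At 24 h they went from 6.16, 6.09, 6.21, 6.40 and 6.12 to 7.25, 8.29, 7.33, 8.05 and 6.94 (1.38 ± 0.25, adjusted p = 0.000661). Groups did not overlap in any of the 4 comparisons. The difference of the effect between strains, C3H minus AJ, was -0.41 ± 0.35 at 6 h and -0.85 ± 0.35 at 24 h, and neither passed (adjusted p = 0.68 and 0.3). A dimmer probe set of Tnfrsf9 showed 2.01, 1.48, 2.03 and 1.14 in the order AJ 6 h, AJ 24 h, C3H 6 h and C3H 24 h. The remaining probe set, also dim, showed 0.20, -0.06, 0.17 and -0.24. With the mean of its 3 probe sets Tnfrsf9 stood at 1.37, 1.22, 1.23 and 0.76 in that order and still passed in all 4, but at 24 h it was then below Tnfsf13b, at 1.41 in AJ and 0.81 in C3H mice.

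**Figure D2:**
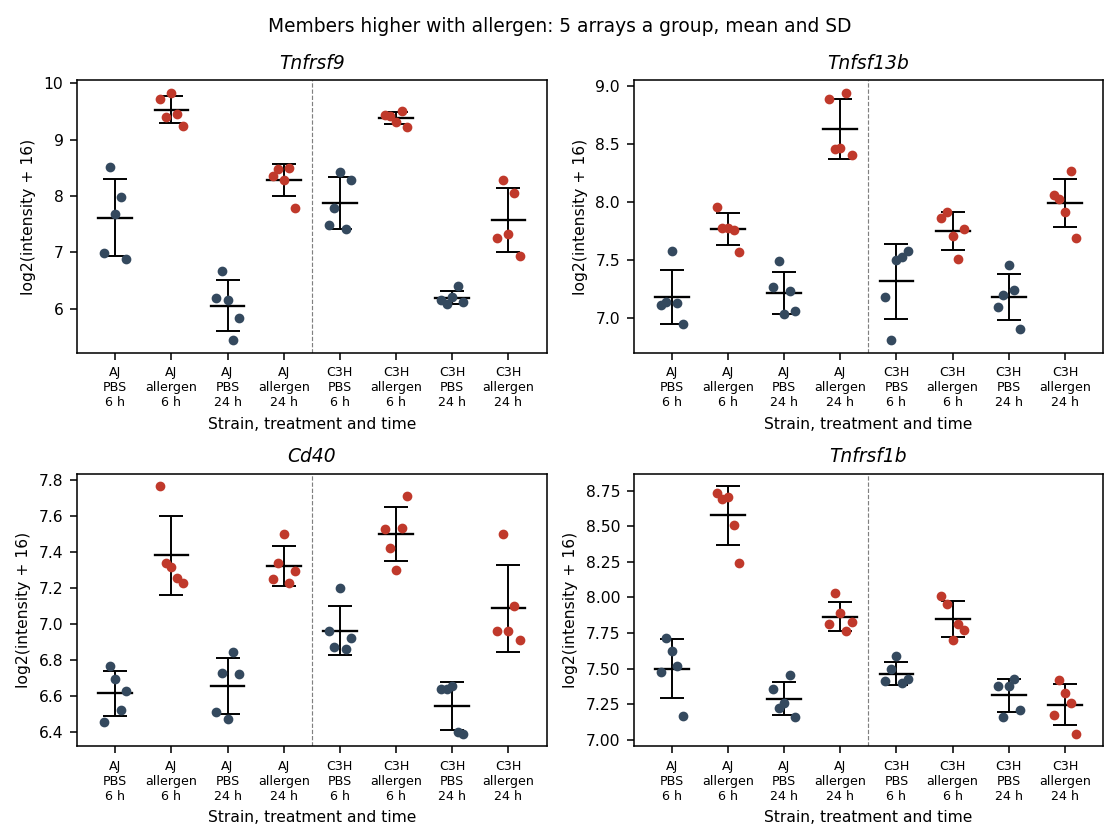
Level of Tnfrsf9, Tnfsf13b, Cd40 and Tnfrsf1b as log2(intensity + 16) on each array (points, PBS dark and allergen red) in the 8 strain, treatment and time groups; the long line is the mean and the bars are the SD of 5 arrays. Tnfrsf9 in PBS lungs is lower at 24 h than at 6 h in both strains, and Tnfrsf1b in C3H mice at 24 h shows overlapping groups.

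Of the 6 receptors of T cell costimulation, 3 rose at each time in AJ mice and 1, Tnfrsf9, at each time in C3H mice. Over all genes 7.03% and 4.56% rose in AJ mice at 6 h and 24 h, and 3.93% and 2.1% in C3H mice. No strain difference of the effect passed for the group's members. Tnfrsf18, which encodes GITR, rose by 0.58 ± 0.13 at 6 h and 0.52 ± 0.13 at 24 h in AJ mice (adjusted p = 0.00134 and 0.0104), beside 0.21 and 0.30 in C3H mice, which did not pass. Tnfrsf4, which encodes OX40 and lies next to Tnfrsf18 with no protein-coding gene between them, rose by 0.67 ± 0.20 in AJ mice at 6 h (adjusted p = 0.012). At 24 h Tnfrsf4 had non-overlapping groups in AJ mice but did not pass (0.51 ± 0.20, adjusted p = 0.12), and in C3H mice it stood at -0.05 and -0.21. The strain difference of the Tnfrsf4 effect, -0.72 ± 0.28 at 6 h, did not pass (adjusted p = 0.194). Cd27, a receptor of T and B cells whose ligand is Cd70, rose in AJ mice at 24 h (0.80 ± 0.16, adjusted p = 0.00102), and its probe set was dim, with 1.38 at a pseudocount of 1 and 0.36 at 64. The Cd27 effect in AJ mice was higher at 24 h than at 6 h by 0.83 ± 0.23 (adjusted p = 0.025). That difference was lost without AJ allergen 24 h array 3, AJ allergen 6 h array 2, AJ PBS 24 h array 5 or AJ PBS 6 h array 5 (adjusted p = 0.0627, 0.0514, 0.0627 and 0.0524). Tnfrsf8 (CD30) and Tnfrsf14 (HVEM) passed nowhere.

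T and NK cell genes were measured for 12 listed markers, and limma called 3 higher for AJ at 6 h and 4 at 24 h, against 0 and 2 for C3H. Of all genes 7.03% and 4.56% were higher in AJ mice at these times, and 3.93% and 2.1% in C3H mice. Arrays of this list ranged from 5.47 to 5.90 with PBS and 6.08 to 6.38 with allergen in AJ mice at 6 h, and from 5.55 to 5.95 and 6.09 to 7.19 at 24 h. In C3H mice they ranged from 5.73 to 5.94 and 5.92 to 6.36 at 6 h, and from 5.56 to 5.84 and 5.39 to 6.79 at 24 h. Their part in the rises of costimulatory receptors was not tested.

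Among death ligands, Fasl was higher and Tnfsf10 lower with allergen at 6 h in AJ mice. Tnfsf10, which encodes TRAIL, went from 6.35, 5.91, 6.70, 6.44 and 6.05 with PBS to 5.54, 5.53, 5.24, 5.52 and 5.51 with allergen, a fall without overlap (-0.82 ± 0.20, adjusted p = 0.00201). In C3H mice at 6 h it stood at -0.07, and the strain difference of 0.75 did not pass. Fasl, the ligand of Fas made by cytotoxic lymphocytes, rose by 0.49 ± 0.13 (adjusted p = 0.00476), with 0.74 at a pseudocount of 1 and 0.24 at 64. A second probe set of Fasl, slightly dimmer, showed 0.31 ± 0.22 there, and with the mean of both the rise was 0.40 (adjusted p = 0.0208). Of the 5 death domain receptors 1 fell in AJ mice at 6 h, 1 rose in C3H mice at 6 h and 0 changed at 24 h in either strain. A count of 1 of 5 in AJ mice at 6 h is near the share of all genes there, 19.0%. The shares of all genes were 7.62% in C3H mice at 6 h, and 7.84% in AJ and 3.24% in C3H mice at 24 h. A single call among 5 genes is no result about the group in either strain. Fas rose in C3H mice at 6 h, from 6.31, 5.97, 6.33, 7.02 and 6.62 to 6.86, 7.75, 7.45, 7.31 and 7.76 (0.98 ± 0.27, adjusted p = 0.0187). A PBS array at 7.02 lay above the lowest allergen array. The Fas call was lost without allergen array 2 or 5 or PBS array 2 (adjusted p = 0.0594, 0.0562 and 0.0684). The AJ difference of Fas at 6 h, 0.62 ± 0.27, did not pass (adjusted p = 0.113) and passed without AJ PBS array 2. Tnfrsf1a, the ubiquitous receptor of TNF, stood between 0.05 and 0.20 in the 4 comparisons and passed in none, as did Tnfrsf10b (the TRAIL receptor) and Tnfrsf25 (the receptor of TL1A).

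Tnfrsf21, which encodes death receptor 6, fell in AJ mice at 6 h. Its levels were 8.62, 8.42, 8.32, 8.30 and 8.24 with PBS and 7.77, 7.38, 7.93, 7.45 and 7.61 with allergen. No arrays overlapped, and the difference was -0.75 ± 0.13 (adjusted p = 2.24e-05). With PBS in AJ mice the level at 24 h was lower than at 6 h by -0.71 ± 0.13 (adjusted p = 0.000532). Every AJ PBS array at 6 h stood above every array of the other 3 AJ groups. A second probe set of Tnfrsf21 showed -0.19 ± 0.20 for allergen in AJ mice at 6 h, and with the mean of both the fall was -0.47 (adjusted p = 0.00531).

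Tnfrsf1b, which encodes TNF receptor 2, the receptor of TNF on leukocytes and endothelium, rose in 3 comparisons. The AJ levels at 6 h were 7.48, 7.72, 7.62, 7.52 and 7.17 with PBS and 8.73, 8.69, 8.70, 8.51 and 8.24 with allergen. The difference was 1.08 ± 0.10 (adjusted p = 1.1e-10), and the groups were apart. At 24 h in AJ mice it was 0.58 ± 0.10 (adjusted p = 8.5e-05), in C3H mice at 6 h 0.39 ± 0.10 (0.0106) and at 24 h -0.07 ± 0.10 (0.786). The C3H levels at 6 h were 7.41, 7.50, 7.59, 7.40 and 7.43 with PBS and 8.01, 7.95, 7.70, 7.82 and 7.77 with allergen. Groups were apart wherever it rose. Averaging with a dimmer probe set, which stood at 0.83 ± 0.18, -0.24 ± 0.18, 0.71 ± 0.18 and -0.10 ± 0.18 in the order AJ 6 h, AJ 24 h, C3H 6 h and C3H 24 h, removed the call in AJ mice at 24 h (0.17, adjusted p = 0.408).

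Tnfrsf1b was the member whose allergen effect differed between strains at both times. The effect in C3H mice was lower than in AJ mice by -0.69 ± 0.14 at 6 h (adjusted p = 0.00384) and by -0.64 ± 0.14 at 24 h (adjusted p = 0.0269). In PBS lungs C3H and AJ mice differed by -0.03 ± 0.10 and 0.02 ± 0.10. With the mean of both probe sets neither strain difference passed (-0.41 and -0.25, adjusted p = 0.15 and 0.51). The difference at 24 h was also lost with median centring (0.0656) and without AJ allergen array 2, AJ PBS array 5, C3H allergen array 1 or 5, or C3H PBS array 1, 3 or 4 (0.0597, 0.0684, 0.0635, 0.0553, 0.0566, 0.0541 and 0.0528). Markers of neutrophils rose in 8 of 9 in AJ and 5 of 9 in C3H mice at 6 h, and in 4 and 1 at 24 h. Of all genes 7.03% and 3.93% rose at 6 h, and 4.56% and 2.1% at 24 h. Arrays of the neutrophil list ranged from 8.95 to 9.40 in AJ and 7.84 to 9.43 in C3H mice with allergen at 6 h, and from 7.91 to 8.81 and 7.24 to 7.51 at 24 h. With PBS they ranged from 6.97 to 7.71 in AJ and 7.09 to 7.93 in C3H mice at 6 h. The PBS ranges at 24 h were 6.89 to 7.12 and 6.91 to 7.27. The part of neutrophils in the strain difference of Tnfrsf1b was not tested.

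Across members, 2 of 34 differed between strains in their response at 6 h (5.88%, against 2.15% of all genes, 1.15% higher and 1.01% lower) and 1 at 24 h (2.94% against 0.46%, 0.226% higher and 0.234% lower). The second at 6 h was Tnfrsf12a, which encodes Fn14, the receptor of TWEAK that injured epithelium and stroma make. The AJ levels of Tnfrsf12a at 6 h went from 8.14, 8.80, 8.29, 8.63 and 8.41 with PBS to 9.38, 9.11, 9.38, 9.72 and 9.34 with allergen (0.93 ± 0.21, adjusted p = 0.00134). In C3H mice it went from 9.64, 9.30, 10.05, 8.63 and 8.91 to 9.29, 9.15, 8.95, 8.80 and 9.22 (-0.23 ± 0.21, adjusted p = 0.641). The AJ groups were apart and the C3H groups overlapped, with the allergen groups of both strains near the same level, 9.38 ± 0.22 and 9.08 ± 0.20 (SD, n = 5). A second probe set of Tnfrsf12a showed 0.75 ± 0.19 in AJ and -0.03 ± 0.19 in C3H mice at 6 h. The strain difference of the effect was -1.16 ± 0.30 (adjusted p = 0.0301). It was lost with a pseudocount of 1 (adjusted p = 0.058) and without AJ allergen array 4, AJ PBS array 1 or 3, C3H allergen array 3 or 4, or C3H PBS array 1 or 3 (0.0679, 0.0589, 0.0589, 0.0605, 0.0678, 0.0646 and 0.0767).

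The PBS level of Tnfrsf12a at 6 h was higher in C3H than in AJ mice by 0.86 ± 0.21 (adjusted p = 0.0155), a call lost without C3H PBS array 3 (0.67, adjusted p = 0.0693). Those PBS arrays enter both this difference and the strain difference of the effect. At 6 h with PBS 2 members differed between strains (5.88% against 4.45% of all genes, 2.36% higher and 2.1% lower) and at 24 h 1 did (2.94% against 1.93%, 1.09% higher and 0.839% lower), shares near those of all genes. The other at 6 h was Tnfrsf21, at -0.42 ± 0.13 (adjusted p = 0.0499). That call was lost without any 1 of 9 of the 10 arrays, the exception being C3H PBS array 3, with adjusted p = 0.123, 0.102, 0.0898, 0.0549 and 0.0516 without AJ arrays 1 to 5 and 0.0704, 0.112, 0.114 and 0.0565 without C3H arrays 1, 2, 4 and 5. It was lost too with quantile normalization (0.0666), median centring (0.0564) and a pseudocount of 1 (0.0649), and with the mean of both probe sets the value was 0.01.

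**Figure D3:**
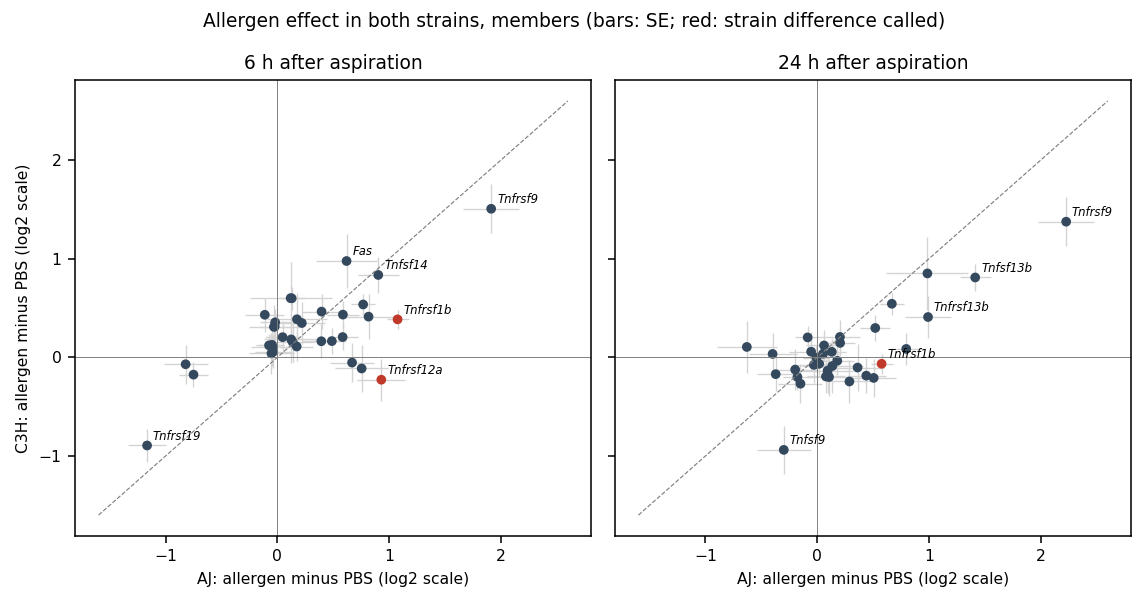
Allergen minus PBS difference in AJ (horizontal) against C3H mice (vertical) for the 34 members at 6 h and at 24 h, on the log2(intensity + 16) scale with SE bars; red points are members whose difference between strains had an adjusted p under 0.05 and the dashed line marks equal effects. Tnfrsf9 lies farthest from 0 at both times, and Tnfrsf1b lies below the dashed line in both panels.

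Tnfrsf19, which encodes TROY, a receptor of epithelial and stromal cells, fell at 6 h in both strains. In AJ mice the levels were 7.25, 7.30, 7.82, 7.22 and 7.34 with PBS and 5.96, 6.39, 6.26, 6.34 and 6.15 with allergen, a difference of -1.17 ± 0.17 (adjusted p = 1.92e-06). In C3H mice they were 7.16, 7.09, 7.17, 7.74 and 7.64 with PBS and 6.27, 6.34, 6.78, 6.64 and 6.30 with allergen (-0.89 ± 0.17, adjusted p = 0.00049). Neither pair of groups overlapped, and the other probe sets of Tnfrsf19 stood at -0.45 and -0.66 in AJ and -0.50 and -0.26 in C3H mice. With the mean of all its probe sets the falls were -0.76 and -0.55 (adjusted p = 1.04e-05 and 0.00252). At 24 h the differences were -0.37 ± 0.17 and -0.17 ± 0.17 and did not pass. In AJ mice the effect at 24 h was above that at 6 h by 0.79 ± 0.24 (adjusted p = 0.042), a call lost under 5 of the 7 other settings, with adjusted p of 0.0793 (quantile), 0.0863 (median centring), 0.0636 (pseudocount 64), 0.248 (mean of probe sets) and 0.056 (replicate number as a block). It was lost on leaving out any 1 of 12 of the 20 arrays: AJ allergen 24 h array 2, 3 or 5 (0.0913, 0.0747 and 0.0681), AJ allergen 6 h array 1, 3 or 5 (0.0713, 0.0563 and 0.0653), AJ PBS 24 h array 2, 3 or 5 (0.0545, 0.0879 and 0.077) and AJ PBS 6 h array 2, 3 or 5 (0.0519, 0.1 and 0.0538). With PBS at 24 h Tnfrsf19 was higher in C3H than in AJ mice, at 8.24, 7.85, 7.94, 7.42 and 7.74 against 7.18, 7.04, 6.67, 7.22 and 6.81 (0.85 ± 0.17, adjusted p = 0.00192), and with the mean of its probe sets this was 0.19 (adjusted p = 0.639).

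**Figure D4:**
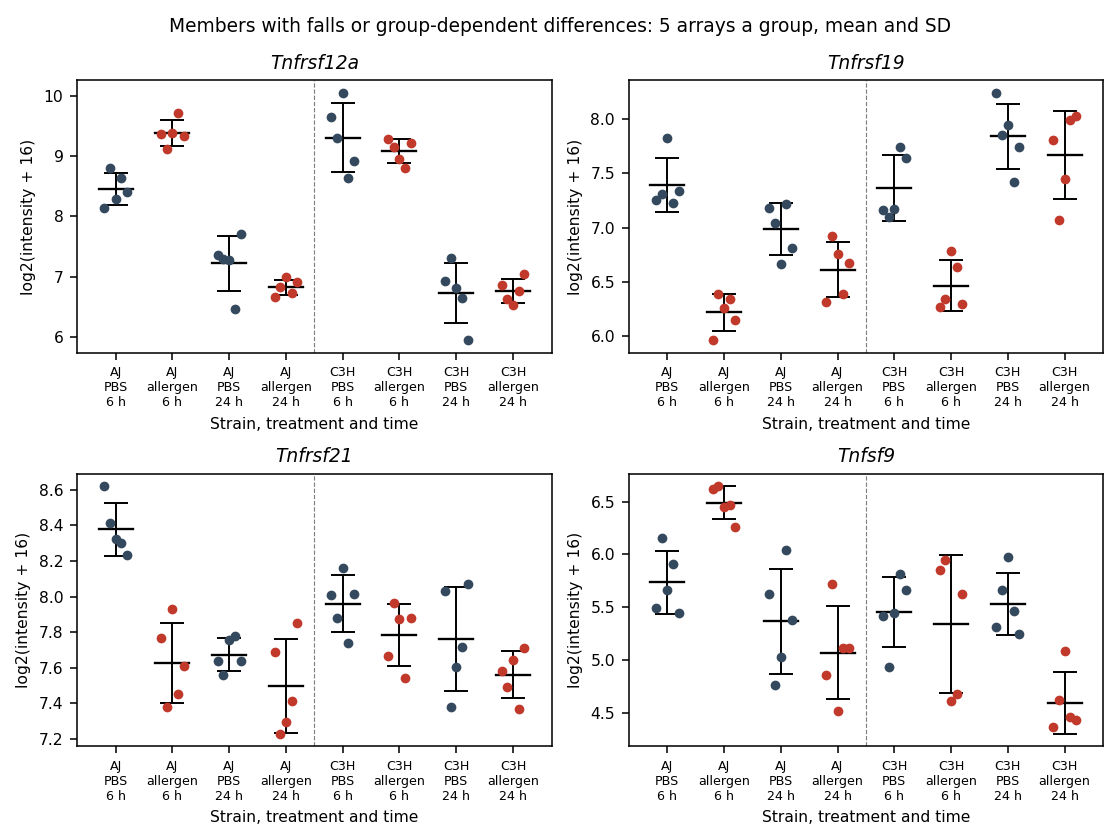
Level of Tnfrsf12a, Tnfrsf19, Tnfrsf21 and Tnfsf9 as log2(intensity + 16) on each array (points, PBS dark and allergen red) in the 8 groups; the long line is the mean and the bars are the SD of 5 arrays. Tnfrsf12a is high at 6 h and low at 24 h with either treatment, and Tnfrsf19 with allergen at 6 h lies below PBS in both strains.

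Lungs that received PBS alone were compared between 24 h and 6 h. The hour of harvest and the time since aspiration cannot be told apart. At 24 h, 0 members were higher and 3 lower in AJ mice (8.82%, against 5.37% of all genes, 2.9% higher and 2.48% lower) and 0 higher and 3 lower in C3H mice (8.82% against 3.21%, 1.76% higher and 1.45% lower). Tnfrsf12a was lower at 24 h by -1.23 ± 0.21 in AJ and by -2.58 ± 0.21 in C3H mice (adjusted p = 0.000336 and 1.2e-10). In C3H mice with PBS its levels were 9.64, 9.30, 10.05, 8.63 and 8.91 at 6 h and 6.93, 7.32, 6.81, 6.65 and 5.94 at 24 h, a gap of more than 1 between the groups. Tnfrsf9 was lower at 24 h by -1.56 ± 0.25 in AJ and -1.68 ± 0.25 in C3H mice (adjusted p = 9.66e-05 and 4.4e-05), without overlap in either strain. The third member in AJ mice was Tnfrsf21, above, and in C3H mice Cd40 (-0.42 ± 0.11, adjusted p = 0.0242). The Cd40 call was lost without C3H PBS 24 h array 4 or 5 or C3H PBS 6 h array 3 (0.0681, 0.0739 and 0.0923) and with the mean of its probe sets (-0.20, adjusted p = 0.408). These PBS arrays also enter the allergen comparisons, so the values are set side by side and not counted as separate support.

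In AJ mice the effect of allergen differed between times for 6 members (17.6%, against 5.62% of all genes, 3.53% higher and 2.1% lower), 3 higher and 3 lower at 24 h. Tnfsf13b, Cd27 and Tnfrsf19 had the higher effect at 24 h, with values given above. By the brightest probe set Tnfrsf12a had the largest difference of effects, -1.33 ± 0.30 (adjusted p = 0.00506), between 0.93 ± 0.21 at 6 h and -0.40 ± 0.21 at 24 h. Its second probe set, nearly as bright, stood at 0.75 ± 0.19 at 6 h and 0.03 ± 0.19 at 24 h. Tnfsf14 and Tnfrsf1b had the lower effect at 24 h, Tnfrsf1b by -0.50 ± 0.14 (adjusted p = 0.0256). The Tnfrsf1b call was lost without AJ allergen 6 h array 2 or 3, AJ PBS 24 h array 4 or AJ PBS 6 h array 5 (0.0503, 0.0529, 0.0532 and 0.0669). In C3H mice limma called 0 members (against 0.88% of all genes, 0.436% higher and 0.444% lower). There Tnfsf14 stood at -0.91 ± 0.26 and Tnfrsf11b at -0.60 ± 0.16, and neither passed (adjusted p = 0.0852 and 0.0691).

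The decoy receptors were 3 measured members: Tnfrsf11b, Tnfrsf22 and Tnfrsf23. Tnfrsf11b, which encodes osteoprotegerin, the soluble decoy of RANKL and TRAIL, rose in C3H mice at 6 h (0.60 ± 0.12, adjusted p = 0.000637), without overlap and with 1.40 at a pseudocount of 1 and 0.22 at 64. Tnfrsf22 and Tnfrsf23, adjacent genes for decoys of TRAIL, passed nowhere. The ligands of lymphoid organ formation and bone, Lta, Ltb and Tnfsf11 (RANKL), did not pass either. Among these Ltb, a subunit of membrane lymphotoxin, reached 0.99 ± 0.37 in AJ mice at 24 h (adjusted p = 0.0997), from 6.54, 6.77, 7.10, 7.03 and 6.75 to 7.55, 8.23, 8.36, 7.23 and 7.76, without overlap. Its PBS arrays at 6 h were widely spread in C3H mice, from 4.90 to 7.28. Over the 12 tests as described, 16 members passed in none, with allergen differences between -0.63 (Lta) and 0.99 (Ltb): Cd40lg, Cd70, Lta, Ltb, Tnfrsf10b, Tnfrsf11a, Tnfrsf13c, Tnfrsf14, Tnfrsf1a, Tnfrsf22, Tnfrsf23, Tnfrsf25, Tnfrsf8, Tnfsf11, Tnfsf4 and Tnfsf8. A missed threshold does not show that these were unchanged. Tnfrsf1a was lower at 24 h than at 6 h in C3H PBS lungs by -0.54 ± 0.16 (adjusted p = 0.0544), and it passed under 6 of the 7 other settings, a pseudocount of 1 being the exception, and without C3H PBS 24 h array 2 or C3H PBS 6 h array 5. Tnfrsf11a, which encodes RANK, passed as higher in AJ mice at 6 h with quantile normalization and with median centring. In C3H mice at 6 h Tnfsf8 passed without allergen array 3 and Tnfrsf25 without allergen array 5.

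Tnf itself lies outside the symbol rule and between Ltb and Lta on the genome, with no protein-coding gene in between. Tnf rose at 6 h in both strains. In AJ mice it went from 4.56, 6.2, 5.18, 5.41 and 4.72 with PBS to 7.99, 7.23, 7.63, 6.66 and 6.74 with allergen (2.04 ± 0.26, adjusted p = 1.96e-07). In C3H mice it went from 4.56, 4.43, 4.54, 4.52 and 4.41 to 6.73, 6.42, 6.22, 6.59 and 5.97 (1.90 ± 0.26, adjusted p = 3.13e-06). At 24 h Tnf stood at 0.77 ± 0.26 in AJ and 0.02 ± 0.26 in C3H mice (adjusted p = 0.0683 and 0.983). So both neighbours of Tnf passed in none of the 4 comparisons, while Tnf passed in 2. Of the 6 measured family genes outside the rule, the others (Ltbr, Ngfr, Eda, Edar and the adaptor gene Edaradd) passed in none.

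Downstream of the receptors, 42 of 52 listed signalling genes were measured. For AJ, 13 were higher and 5 lower at 6 h and 5 higher and 0 lower at 24 h, and for C3H 7 higher and 1 lower at 6 h and 4 higher and 0 lower at 24 h. These were 42.9%, 11.9%, 19.0% and 9.52% of the list, beside 19.0%, 7.84%, 7.62% and 3.24% of all genes. The median difference of the list was 0.18, 0.13, 0.12 and 0.06 in that order, and that of all genes -0.07, 0.00, 0.00 and -0.04. The 3 largest rises of the list in AJ mice at 6 h were Birc3, Tnfaip3 and Tnip1. Birc3, a ubiquitin ligase that holds back cell death, rose by 1.73 ± 0.19 (adjusted p = 4.4e-09). Tnfaip3, which encodes A20, rose by 1.66 ± 0.15 and its partner Tnip1 by 1.59 ± 0.13 (adjusted p = 5.54e-11 and 1.02e-11). The largest falls there were Ikbkg, the regulatory subunit of the IkB kinase (-0.70 ± 0.13), Jun, an AP-1 subunit (-0.51 ± 0.18), and Tab1, an activator of the kinase TAK1 (-0.47 ± 0.14). Genes of this list were not put through the other settings. In AJ mice at 6 h the count of falls over all genes depended on the scaling, as given above. In C3H mice at 6 h Bid, which links death receptors to mitochondria, rose by 1.55 ± 0.23, Birc3 by 1.15 ± 0.19 and Tnip1 by 1.04 ± 0.13, and Map3k5, a stress kinase, fell by 0.38 ± 0.10. At 24 h in AJ mice Bid (0.89 ± 0.23), Birc3 (0.68 ± 0.19) and Nfkbie, an inhibitor of NF-kB (0.54 ± 0.15), led the list. At 24 h in C3H mice Bid (0.82 ± 0.23), Ripk3, a kinase of necroptosis (0.67 ± 0.15), and Birc3 (0.65 ± 0.19) did. The effect on Tnfaip3 at 6 h was lower in C3H than in AJ mice by -0.93 ± 0.21 (adjusted p = 0.0101), the only gene of the list of 42 whose effect differed between strains by this test at 6 h, and 0 did at 24 h.

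**Figure D5:**
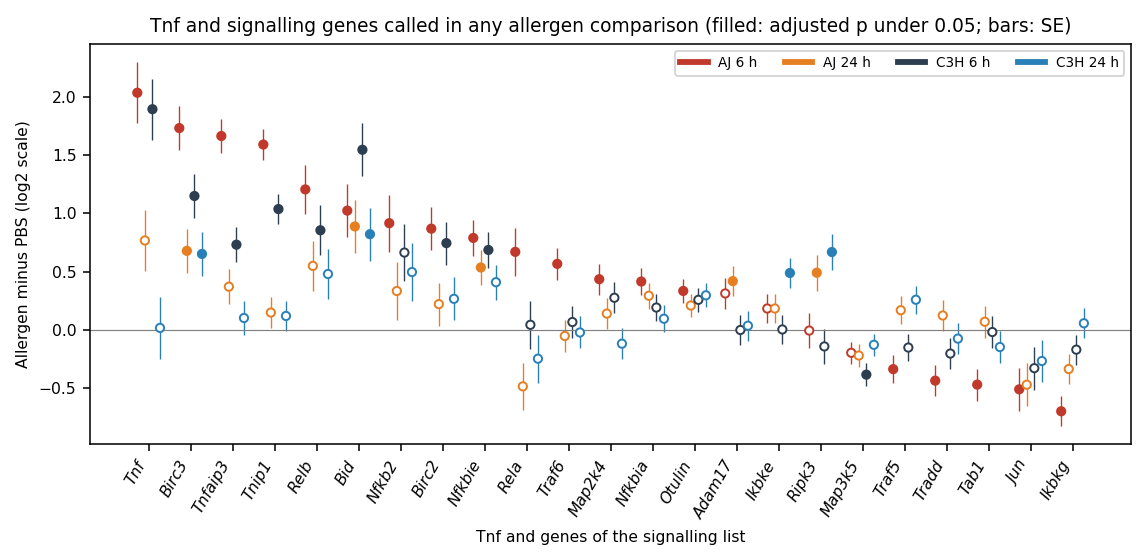
Allergen minus PBS difference on the log2(intensity + 16) scale for Tnf and the signalling genes called in at least 1 allergen comparison, with SE bars, in 4 strain and time comparisons (colours); filled points have an adjusted p under 0.05. Tnf, Birc3, Tnfaip3 and Tnip1 are highest in AJ mice at 6 h, and Bid is filled in all 4 comparisons.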

How the data were processed

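Arrays were grouped by the strain, treatment, time and number in the sample titles. The deposited table holds linear intensity values, 1 for each probe set on each array. The software that made it is not given in the sources used here. Trimmed means (2% off each end) of the deposited intensities lay between 150.036 and 150.046, which shows a common scaling by the authors with no equalising of distributions. No pair of arrays was identical. Of 22690 probe sets, 20380 with 1 platform symbol were used. Where a gene had several probe sets, as 13 members did, the one with the highest mean stood for it.

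Values were taken as log2(intensity + 16). Of the members' values 15.1% lay below 16. With limma 3.58.1 (R 4.3.3; lmFit and eBayes) the means of 8 groups were estimated from all 40 arrays, and 12 contrasts were tested, each adjusted by Benjamini-Hochberg over 12393 genes, two-sided. Members, lists, motifs and tests were chosen with earlier results of these data known. Every member that passed was named. Members to show by array were the 3 largest passing rises and 2 largest passing falls of each allergen contrast. The 2 largest passing of each sign in strain contrasts were added. Array values of these members were printed for at least 1 comparison, not for every comparison in which they passed. Tried in turn were median centring, quantile normalization, a pseudocount of 1 or of 64, a table without the dimmest 25% of genes, the mean of all probe sets of a gene, the array number as a block, and leaving out each array. Endothelium markers (4 of 8 lower in AJ mice at 6 h, 1 at 24 h, 3 and 1 in C3H mice), dendritic cell markers (3 of 7, 2, 2 and 2 higher), muscle markers (3 of 8 lower in AJ mice at 24 h, 0 otherwise) and adipose markers (1 of 4 lower in AJ mice at 24 h, 0 otherwise) were also counted. Lung epithelium markers were lower in 3 and 2 of 8 in AJ and 1 and 0 in C3H mice. Of all genes 12% and 3.28% were lower in AJ mice at 6 h and 24 h, and 3.69% and 1.15% in C3H mice. The shares of all genes that were higher were 7.03% and 4.56% in AJ and 3.93% and 2.1% in C3H mice.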

Additional observations from a re-analysis of the deposited data

Results flagged for a closer look

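Among the 12 members shown by array, 96 groups of 5 were searched for an array far from the others, and 6 were found, close to the 1 in 20 that chance gives. Cd40 stood at 7.77 on AJ allergen 6 h array 1, where the next was 7.34, and at 7.20 on C3H PBS 6 h array 3, where the next was 6.96. Tnfrsf13b stood at 6.97 on AJ allergen 6 h array 1 (next 6.13). Tnfrsf19 stood at 7.82 on AJ PBS 6 h array 3 (next 7.34). Tnfsf10 stood low at 5.24 on AJ allergen 6 h array 3 (next 5.51), and Tnfsf14 at 5.0 on AJ allergen 24 h array 5 (next 4.51).

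Allergen effects that differed by the test of the difference itself were these. Between strains, C3H minus AJ, they were Tnfrsf12a (-1.16) and Tnfrsf1b (-0.69) at 6 h, and Tnfrsf1b (-0.64) at 24 h. Between times in AJ mice, 24 h minus 6 h, they were Cd27 (0.83), Tnfsf13b (0.83), Tnfrsf19 (0.79), Tnfrsf1b (-0.50), Tnfsf14 (-0.93) and Tnfrsf12a (-1.33). Causes of these differences were not tested.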

How the results depend on the processing

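Of 51 member calls over the 12 comparisons, 38 stood whichever single array was left out, among them 29 of the 33 allergen calls; the arrays behind the 13 others are named beside the results. Quantile normalization kept 49 of the 51 calls, median centring 47, a pseudocount of 1 46, a pseudocount of 64 49 and the mean of all probe sets 44. Tnfrsf1a, over time in C3H PBS lungs, and Tnfrsf11a, with allergen in AJ mice at 6 h, passed under some of these settings, as given above. With the array number as a block (replicate block) 50 were kept, and Tnfrsf19 between times in AJ mice was lost (0.79, adjusted p = 0.056). Same-numbered arrays of different groups did not deviate together (median correlation 0.00 over 140 pairs, from -0.26 to 0.41), so the numbers were not taken to pair the arrays. All 41 calls that could be made without the dimmest 25% of genes were kept.

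The 4 allergen counts stayed within 1.5 times under every alternative. Leaving out arrays gave 13 to 15 in AJ mice at 6 h, 7 throughout at 24 h, 6 to 8 in C3H mice at 6 h and 3 to 4 at 24 h. It was 6 in C3H mice at 6 h without the array that correlated least with its group. The counts of differences between strains in the effect ran from 1 to 3 at 6 h and from 0 to 1 at 24 h, those between times from 4 to 7 in AJ and 0 to 1 in C3H mice. Strain counts with PBS were 1 throughout at 6 h and 1 at 24 h, and time counts with PBS 3 to 4 in AJ and 2 to 4 in C3H mice. Small counts moved elsewhere. The strain difference with PBS at 6 h gave 1 member under quantile normalization, median centring, a pseudocount of 1 and the mean of probe sets, and at 24 h 0 under the mean of probe sets. The strain difference of the effect at 6 h gave 1 under a pseudocount of 1 and under the mean of probe sets, and at 24 h 0 under median centring and the mean of probe sets. The difference between times in C3H mice gave 3 (Tnfrsf11b, Tnfrsf1b and Tnfsf14) under the mean of probe sets. Tnfrsf21 between strains with PBS at 6 h reversed under the mean of probe sets, at 0.012. Beyond the alternatives' own construction, the cause was not tested. Centring also moved the split of all genes, from 53.2% to 34.6% higher for the strain difference of the effect at 6 h, from 49.1% to 64% at 24 h, from 62.7% to 44.8% for the difference between times in AJ mice and from 53.9% to 39.1% for time with PBS in AJ mice.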
